A study of Mus musculus with 2 samples.

Results

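The 9 genes described here encode basic leucine zipper (bZIP) transcription factors of related DNA-binding type: the proline and acidic amino acid-rich (PAR) bZIP factors Hlf, Tef and Dbp, the repressor Nfil3, and the C/EBP factors Cebpa, Cebpb, Cebpd, Cebpe and Cebpg. They were taken by gene symbol, 9 of 27179 gene rows, from RNA sequencing of progenitors of group 2 innate lymphoid cells (ILC2). They were chosen by family, with RPKM values and differences between the libraries already known from these data, so their levels are given as a description. All data come from 1 group of 2 libraries, called pool 1 and pool 2, from C57BL/6 mice aged 8 weeks, wild type per the series title, with no treatment of the animals named in the labels. Each pool combined sorted bone marrow cells of 8 mice, sorted with antibodies that the labels do not name. With pooled animals, 2 libraries and no other group, no test between conditions exists, and every difference below is a difference between these 2 libraries. The sample code printed inside each file is that of the other library (0 of 2 matched), so pool 1 and pool 2 exchange names if those codes are right.

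PAR bZIP factors activate genes through a DNA element called the D-box, and in many mouse tissues their transcripts cycle with the circadian clock. Nfil3, also called E4BP4, binds the same element and represses, and mice without it fail to form most innate lymphoid cells. C/EBP factors bind a related element as dimers and are best known in blood for granulocyte and monocyte development, with Cebpa needed early and Cebpe late in the neutrophil and eosinophil lineages, and Cebpb and Cebpd induced by inflammatory cytokines.

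Start-site regions are shown for Hlf, Tef and Nfil3, which each hold a motif match, and for Cebpb, which differed most between the pools. The region of Dbp, which also holds a match, is not shown. They run from 250 bases before to 50 bases after the start, 5′ to 3′ on the gene's strand, from RefSeq on GRCm38.p6, the build called mm10. Capitals mark a match to 1 of 7 motifs searched on both strands.
Hlf, chr11:90390868-90391167, minus strand: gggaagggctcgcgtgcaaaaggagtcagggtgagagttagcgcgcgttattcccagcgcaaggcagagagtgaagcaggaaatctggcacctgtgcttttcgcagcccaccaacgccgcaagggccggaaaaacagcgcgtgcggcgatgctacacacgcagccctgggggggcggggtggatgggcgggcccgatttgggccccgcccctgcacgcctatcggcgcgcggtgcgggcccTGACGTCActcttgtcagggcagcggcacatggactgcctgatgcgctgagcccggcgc
Tef, upstream start, chr15:81802423-81802722, plus strand: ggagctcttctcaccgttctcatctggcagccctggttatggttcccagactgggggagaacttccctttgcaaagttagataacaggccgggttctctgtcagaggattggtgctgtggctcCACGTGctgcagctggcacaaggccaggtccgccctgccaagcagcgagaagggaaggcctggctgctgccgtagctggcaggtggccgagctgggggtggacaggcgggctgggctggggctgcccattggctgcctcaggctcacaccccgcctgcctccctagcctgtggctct
Tef, downstream start, chr15:81811164-81811463, plus strand: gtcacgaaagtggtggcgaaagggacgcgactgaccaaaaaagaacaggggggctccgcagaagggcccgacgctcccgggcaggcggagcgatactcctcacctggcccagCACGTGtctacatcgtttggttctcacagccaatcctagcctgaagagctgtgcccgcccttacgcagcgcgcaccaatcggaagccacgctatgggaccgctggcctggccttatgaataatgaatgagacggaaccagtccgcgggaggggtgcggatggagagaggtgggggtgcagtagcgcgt
Nfil3, chr13:52980990-52981289, minus strand: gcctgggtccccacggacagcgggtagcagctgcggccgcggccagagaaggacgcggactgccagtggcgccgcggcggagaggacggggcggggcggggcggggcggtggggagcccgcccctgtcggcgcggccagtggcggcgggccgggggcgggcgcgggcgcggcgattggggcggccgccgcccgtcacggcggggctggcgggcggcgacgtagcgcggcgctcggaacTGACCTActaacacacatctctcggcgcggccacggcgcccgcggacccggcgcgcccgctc
Cebpb, chr2:167688665-167688964, plus strand: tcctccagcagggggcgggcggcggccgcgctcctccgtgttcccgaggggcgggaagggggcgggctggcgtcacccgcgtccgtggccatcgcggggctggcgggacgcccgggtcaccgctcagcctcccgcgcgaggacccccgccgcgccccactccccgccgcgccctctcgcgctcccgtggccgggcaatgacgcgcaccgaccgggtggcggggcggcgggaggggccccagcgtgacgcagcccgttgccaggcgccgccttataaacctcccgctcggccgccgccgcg

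The capitals in Hlf are TGACGTCA, the cyclic AMP response element bound by CREB and ATF proteins, 9 bases before the start. Of 32851 promoters in the table, 1.79% hold this motif. Both Tef starts hold the E-box CACGTG bound by the clock factors CLOCK and BMAL1, which 7.15% of promoters hold. It lies 127 and 138 bases before the RefSeq starts. In GENCODE M21 the Tef gene begins at 81802421, so the whole upstream region lies inside the gene by that annotation. In Nfil3 the capitals are TAGGTCA read on the opposite strand, the core letters of the response element of ROR and REV-ERB receptors. These letters are held by 2.61% of promoters, and the letters beside the core were not searched. The RefSeq span of Nfil3 reaches to 52982878, upstream on the minus strand, so the whole Nfil3 region shown lies inside that span. Dbp holds TTCNNNGAA, the STAT motif (8.3% of promoters), as TTCCGCGAA. The D-box letters TTANGTAA (2.32% of promoters), the C/EBP letters TTNNGCAA (10.8%) and the CArG box of serum response factor (1.63%) had no match in the 8 promoters of 7 of the 9 genes (all but Cebpd and Cebpe). Promoters of Nfil3 and Cebpb held the most CpG dinucleotides of these, with 54 and 50 in 300 bases, against a median of 7 over all promoters. The other promoters of these genes were also above that median, from 9 (Tef, upstream start) to 38 (Cebpg). A match is a description of letters and no evidence of binding.

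All 9 genes were detected, that is, at 1 RPKM or more in both pools (RPKM, reads scaled by gene length in kilobases and by library total), where 40.5% of all rows were. Mean levels reached 5 RPKM for 6 of the 9, against 31.6% of all rows, and 50 RPKM for 1, Hlf, against 6.71%. Totals recovered from the values were 20216146 reads in pool 1 and 19834586 in pool 2, so that 3 reads over 1 kb made 0.148 RPKM in pool 1 and 0.151 in pool 2. Of the ILC2 marker list, 9 of 9 genes were detected in the sorted cells, with Gata3, the factor on which ILC2 depend, at 292 RPKM (pool 1) and 250.3 RPKM (pool 2).

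Hlf, a factor of blood stem cells that fuses with other genes in leukaemia, was the most abundant of the 9 in both pools. It stood at 51.2 RPKM (pool 1) and 59.3 RPKM (pool 2) (mean 55.2 ± 5.69, SD, n = 2), resting on 5866 and 6660 estimated reads, and lay above 85.3% of detected genes. The gene (Entrez ID 217082) spans chromosome 11 from 90336536 to 90390895 on the minus strand, with 4 exons after merging of isoforms. These and all gene spans below are from GENCODE M21 on GRCm38.p6. Hlf was higher in each pool than all 15 genes of a stem and progenitor list. Those 15 summed to 39.8 RPKM in pool 1 and 59.0 in pool 2, less than Hlf alone in either. Of these 15, 6 were detected, led by the stem cell factor receptor Kit at 11.1 RPKM (pool 1) and 22.0 RPKM (pool 2), Mllt3 at 12.6 and 12.3, and Mycn at 7.24 and 7.21. The stem cell genes Mecom, at 1 read in pool 1 and 9 in pool 2, Procr, at 1 and 6, and Fgd5, at 2 and 2, were near 0. Others of the list lay between, such as Slamf1 at 3.26 RPKM (pool 1) and 5.74 RPKM (pool 2). Prdm16 was at 1.19 and 1.31 RPKM, and Meis1 at 0.934 and 2.21. In pooled RNA, fewer cells with a transcript and less RNA per cell cannot be told apart.

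Dbp, whose transcript is among the strongest cycling outputs of the clock, was second by mean level, at 28.8 RPKM (pool 1) and 34.4 RPKM (pool 2) (mean 31.6 ± 3.92, n = 2), although in pool 1 it lay below Cebpb. Tef, the remaining PAR factor, was at 16.4 and 16.9 RPKM (mean 16.7 ± 0.312) and was the steadiest of the 9, with a coefficient of variation of 1.87%. Dbp (chromosome 7, 45705088 to 45710203) shares 29.3% of its exon bases with Sphk2, a sphingosine kinase gene on the opposite strand that was at 18.5 RPKM (pool 1) and 19.9 RPKM (pool 2). Since the strand setting of the counting is not given, reads of Dbp and Sphk2 in the shared part cannot be told apart. Tef (chromosome 15, 81802421 to 81826863) shares 4.10% with the antisense gene Gm17597, listed at 0.222 and 0.0904 RPKM. The 3 PAR factors together summed to 96.5 RPKM in pool 1 and 110.5 in pool 2, with Hlf holding 53.1% and 53.6%.

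Nfil3 was at 9.09 RPKM (pool 1) and 7.24 RPKM (pool 2) (mean 8.16 ± 1.31, n = 2), from 366 and 286 estimated reads (Entrez ID 18030, chromosome 13, 52967209 to 52981073, minus strand, 2 exons). Nfil3 lay above 33.6% of detected genes. Per length, the PAR activators exceeded the repressor Nfil3 in both pools, with a summed PAR level of 10.6 times that of Nfil3 in pool 1 and 15.3 times in pool 2. Hlf alone was 5.64 and 8.19 times Nfil3. These are transcript levels, and no protein was measured.

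Among the C/EBP genes, Cebpb (Entrez ID 12608, a gene of 1 exon on chromosome 2, 167688915 to 167690418) was the most variable. It was at 36.2 RPKM (pool 1) and 8.51 RPKM (pool 2) (mean 22.3 ± 19.6, n = 2). Cebpb was the second of the 9 genes in pool 1 and the fifth in pool 2. Cebpg, which lacks a known activation domain and dimerises with other C/EBP and ATF proteins, followed at 11.3 RPKM (pool 1) and 16.4 RPKM (pool 2) (mean 13.9 ± 3.60). Cebpb made up 69.1% of the summed C/EBP level in pool 1 and 24.4% in pool 2, and Cebpg 21.6% and 47.0%. Cebpb thereby exceeded Cebpg 3.20 times in pool 1 and was at 0.519 times Cebpg in pool 2.

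Cebpe, Cebpa and Cebpd were low. Cebpe (chromosome 14, 54710360 to 54712174) was at 1.92 RPKM (pool 1) and 5.95 RPKM (pool 2) (mean 3.93 ± 2.85), from 48 and 146 estimated reads. Cebpa, which lies 62.7 kb from Cebpg on chromosome 7, was at 1.801 and 2.60 RPKM (mean 2.20 ± 0.565). Cebpd, an acute-phase regulator, was the lowest at 1.14 and 1.45 RPKM (mean 1.29 ± 0.221), with 52 and 65 reads, close to the detection threshold. Cebpd shares 562 of its 3746 GENCODE exon bases with Spidr on the opposite strand, which was at 7.49 RPKM (pool 1) and 6.94 RPKM (pool 2). The Cebpd values fit a counted length of 2260 bases, so the shared part that was counted may be smaller. The Cebpd values are therefore uncertain. Cebpb overlaps the span of Tmem189 on the opposite strand over 908 bases but shares none of its exon bases, and Tmem189 was at 33.0 and 34.1 RPKM.

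**Figure D1:**
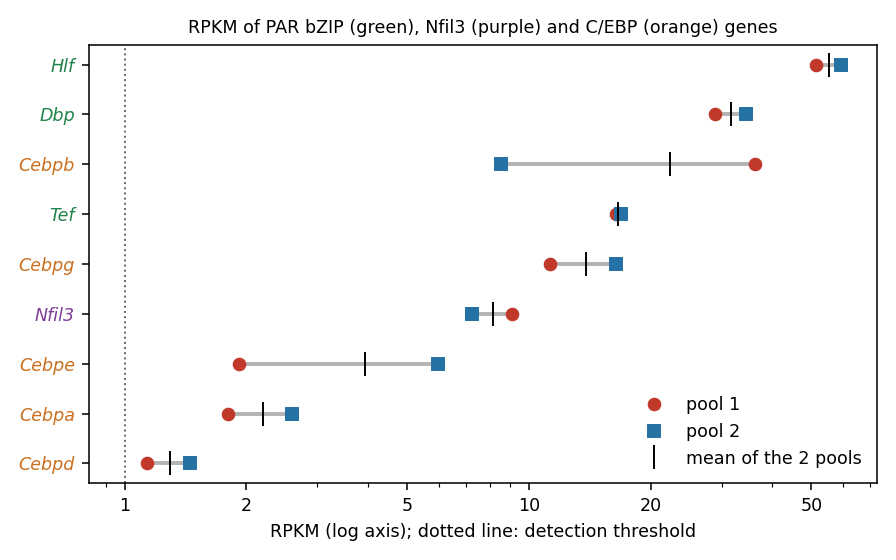
RPKM of the 9 genes in pool 1 (circles) and pool 2 (squares) on a log axis, with the mean of both as a tick and the detection threshold of 1 RPKM as a dotted line. Hlf is highest in both pools at 51.2 and 59.3 RPKM, and the widest gaps are those of Cebpb and Cebpe.

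By mean level the order was Hlf, Dbp, Cebpb, Tef, Cebpg, Nfil3, Cebpe, Cebpa and Cebpd. Of the 8 neighbouring pairs in this order, 5 had ranges over the pools that did not overlap. Dbp and Cebpb overlapped, as did Cebpb and Tef, and Cebpe and Cebpa. Tef and Cebpg did not overlap but were close in pool 2, at 16.9 and 16.4 RPKM. Counted as CPM, reads scaled by library total without division by length, Hlf stayed first at 290.2 and 336, Tef came second at 73.3 and 75.3 with Cebpg next at 53.2 and 77.1, because these genes are longer than Dbp and Cebpb.

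The bZIP family list, 52 genes of which 42 were detected, shows where these levels stand. Hlf was eighth by mean RPKM, Dbp fourteenth, Cebpb seventeenth, Tef place 23, Cebpg place 27 and Nfil3 place 35. The genes above Hlf were the AP-1 genes Fos, Junb, Fosb, Jund and Jun, then Batf at 59.4 RPKM (pool 1) and 84.9 RPKM (pool 2), and Xbp1. Fos stood at 2441 RPKM (pool 1) and 49.6 RPKM (pool 2), and Junb at 1969.6 and 189.7. In pool 2, where AP-1 genes were lower, Hlf at 59.3 RPKM was above Fos, Fosb (15.8) and Jun (39.5). The bZIP gene nearest to Tef over both libraries was Jdp2, at 15.7 and 16.9 RPKM, that nearest to Cebpg was Nfe2 at 11.4 and 17.7, that nearest to Dbp was Atf1 at 32.5 and 32.3, and that nearest to Hlf was Xbp1 at 60.2 and 74.7. Cebpb had no close match, its nearest gene Mafk being at 18.6 and 17.8 RPKM. A higher level in pool 1 was not particular to Cebpb in this family. Of 33 detected bZIP genes outside the 9, 8 were at least 2-fold higher in pool 1, 0 in pool 2 and 25 neither. The 8 included Fosl2 at 15.2 and 5.21 RPKM and Atf3 at 13.6 and 3.26. Likeness over 2 libraries rests on 2 values a gene. The lowest bZIP gene above 0 was Creb5, at 0.0344 RPKM (pool 1) and 0 RPKM (pool 2).

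**Figure D2:**
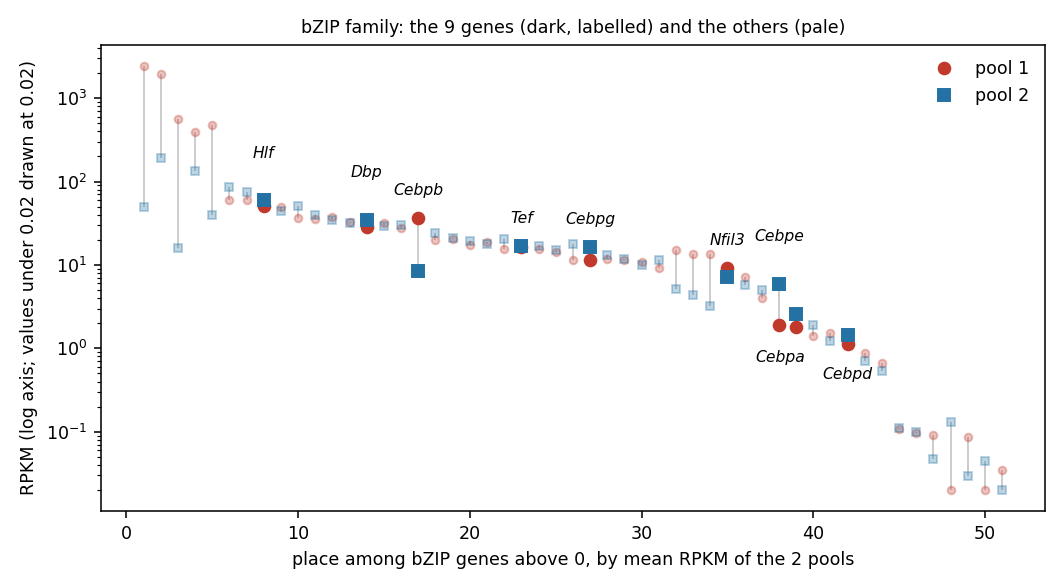
RPKM on a log axis of the 51 bZIP genes above 0, ordered by the mean of both pools, with pool 1 as circles and pool 2 as squares and the 9 genes drawn dark. Hlf is the eighth, and Cebpb and Cebpe show wider gaps between the pools than the other 7 labelled genes.

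Between the pools, 2 of the 9 genes were at least 2-fold apart on the log2(RPKM + 0.1) scale, Cebpb higher in pool 1 and Cebpe lower in pool 1. Of the 11013 detected genes, 2.56% were that far apart, 0.962% higher in pool 1 and 1.60% higher in pool 2. Cebpb differed by 2.07 (log2, pool 1 minus pool 2), a larger difference in size than 99.7% of detected genes showed. In estimated reads scaled by library total, Cebpb was 4.25 times as high in pool 1 (95% exact counting interval 3.70 to 4.89), from 1100 reads in pool 1 and 254 in pool 2. Cebpe differed by -1.58 (log2), larger in size than 99.2% of detected genes. It was 3.10 times as high in pool 2 (interval 2.22 to 4.39). Intervals cover counting error only, and neither gene has a replicate check of its difference.

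The other 7 genes lay within the 2-fold range. Cebpg and Cebpa differed by -0.53 and -0.51 (log2, pool 1 minus pool 2), Cebpd by -0.32, Dbp by -0.25, Hlf by -0.21 and Tef by -0.04, and Nfil3 by 0.32. In all, 2 of 9 genes were higher in pool 1, where 42.7% of detected genes were higher, and 7 of 9 in pool 2, where 57.3% were. The counting interval of the ratio left out 1 for 7 of the 9 genes, as it did for 55.2% of detected genes, and held 1 for Tef and Cebpd. With the smallest read numbers that the values allow, it left out 1 for 6 of the 9 and for 50.8% of detected genes. The interval of Cebpa then ran from 0.393 to 1.203. The summed PAR level differed by -0.20 (log2) and the summed C/EBP level by 0.58. The C/EBP difference turned with Cebpb left out, the other 4 genes each being lower in pool 1 and summing to 16.2 RPKM in pool 1 and 26.4 in pool 2.

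**Figure D3:**
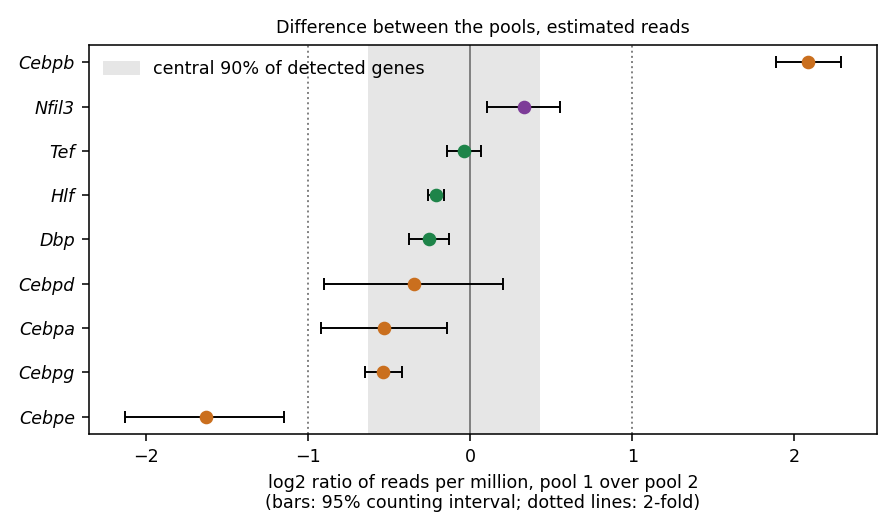
log2 ratio of estimated reads scaled to the library total, pool 1 over pool 2, for the 9 genes, with 95% counting intervals, the central 90% of detected genes shaded and 2-fold marked by dotted lines. Cebpb lies to the right at 4.25-fold and Cebpe to the left, and the other 7 points lie inside the shaded range.

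Immediate early genes, which stimulated cells switch on within minutes, were higher in pool 1 alongside Cebpb. Of the 16 listed, 14 were detected and 13 of these were at least 2-fold higher in pool 1, with a median difference of 3.30 (log2), against -0.04 over all detected genes. Egr1 was at 348 RPKM (pool 1) and 3.81 RPKM (pool 2), Zfp36, which encodes an RNA-destabilising protein, at 2786 and 120.3, and Klf6, at the low end of the 13, at 183 and 89.3. Cebpb, at 2.07, differed less than the median of that list. Cebpd and Nfil3, which cytokines can also induce, were closer between the pools, at -0.32 for Cebpd and 0.32 for Nfil3. The part of stimulation or handling in the Cebpb difference was not tested.

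Granulocyte genes were higher in pool 2 alongside Cebpe. Of 16 neutrophil lineage genes, 14 were detected, each of the 14 higher in pool 2 and 7 of them 2-fold or more, with a median difference of -0.95 (log2, pool 1 minus pool 2). The list summed to 1108 RPKM in pool 1 and 2598 in pool 2. The calprotectin genes S100a9 and S100a8 were at 324 and 288 RPKM in pool 1 and at 842 and 755 in pool 2. The granule gene Ngp was at 121 and 290.7, the primary granule genes Mpo at 71.7 and 93.0 and Elane at 45.0 and 70.6, and the surface marker Ly6g at 3.91 and 7.34. Of 9 eosinophil lineage genes, 7 were detected and 6 were at least 2-fold higher in pool 2, with a median difference of -3.25. Epx, the eosinophil peroxidase, was at 1.03 RPKM (pool 1) and 33.3 RPKM (pool 2), and Prg2, the major basic protein, at 27.2 and 471. The eosinophil receptor gene Il5ra was near 0 in both, at 4 and 14 reads. The monocyte and macrophage list had 6 of 10 genes detected, none 2-fold apart, with a median of -0.53. The part of granulocyte RNA in the Cebpe values was not tested, and in sorted pools more cells of a type and more RNA per cell cannot be told apart.

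**Figure D4:**
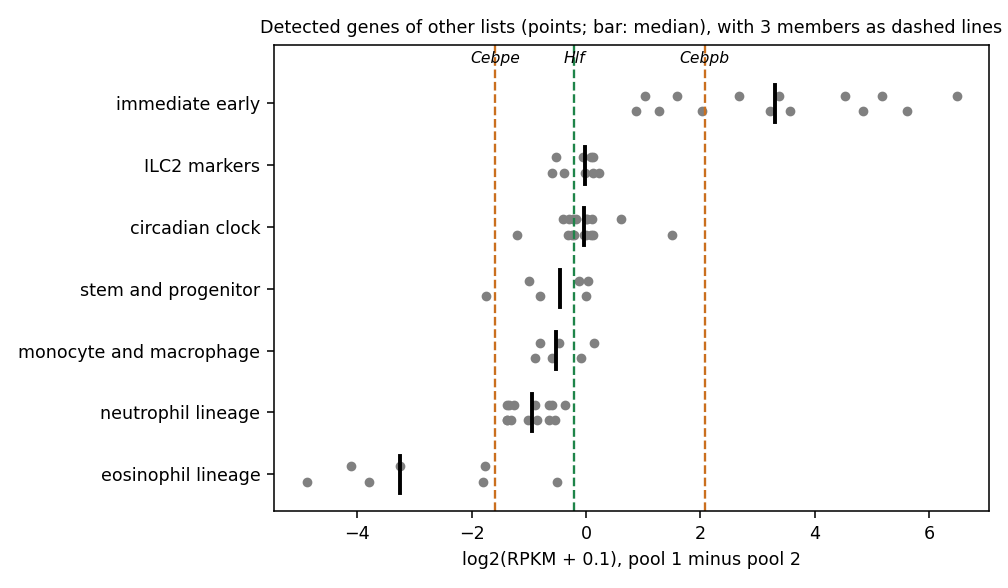
Difference between the pools in log2(RPKM + 0.1), pool 1 minus pool 2, for detected genes (points) of 7 lists, with each list's median as a bar and Cebpe, Hlf and Cebpb as dashed lines. Cebpb lies on the side of the immediate early genes and Cebpe on that of the neutrophil and eosinophil genes, while Hlf lies near 0 with the ILC2 markers and clock genes.

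Clock genes, which drive PAR bZIP and Nfil3 transcription in other tissues, were broadly present. Of 18 listed, 17 were detected and 15 of these lay within 2-fold between the pools, with a median of -0.03 (log2), against -0.04 over all detected genes. The 3 highest were Bhlhe40, a repressor of CLOCK and BMAL1 that is also induced by stimulation, at 147 RPKM (pool 1) and 52.0 RPKM (pool 2), the clock kinase gene Csnk1d at 88.1 and 104, and Rora at 56.0 and 51.3. Nr1d1 and Nr1d2, the REV-ERB repressors that act on Nfil3 in liver, were at 39.7 and 29.4 RPKM in pool 1 and 40.7 and 34.1 in pool 2. Arntl, which encodes BMAL1, was at 18.3 and 22.5 RPKM, Per1 at 17.2 and 17.3, Per2 at 1.12 and 1.12, and Bhlhe41 was lowest at 0.0696 and 0.284. The time of day at which the marrow was taken is not given, so these levels cannot be placed in the daily cycle.

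Of 6 genes known as PAR bZIP targets in mouse liver or brain, 3 were detected and none was 2-fold apart. The electron donor of cytochrome P450 enzymes, Por, had 43.5 RPKM in pool 1 and 48.5 in pool 2, the haem synthesis enzyme Alas1 at 17.5 and 21.1, and the vitamin B6 kinase Pdxk at 9.60 and 9.76. Nr1i3 had 1 and 3 reads, and the liver enzymes Cyp2a5 and Cyp2b10 were listed at 0 in both pools.

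Partners and degraders of C/EBP proteins were detected for 11 of 12 genes, 1 of them at least 2-fold higher in pool 1 and 0 at least 2-fold higher in pool 2, with a median of -0.14 (log2). That gene was Trib1, a pseudokinase that directs C/EBP alpha to degradation, at 6.54 RPKM (pool 1) and 1.89 RPKM (pool 2). Its relative Trib2 was at 15.04 and 16.6 RPKM, and Trib3 was lowest at 0.458 and 0.590. Batf, which pairs with JUN and with C/EBP proteins, led the list, followed by Atf4 at 38.0 and 34.3 RPKM and Ddit3, the stress-induced inhibitor of C/EBP also called CHOP, at 20.05 and 23.9.

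Cytokine receptor and STAT genes listed as possible inputs to Nfil3, Cebpb and Cebpd were detected for 10 of 12 genes, with none 2-fold apart and a median of -0.07 (log2). Induction by them was not tested. Il2rg, the common gamma chain, was at 739 RPKM (pool 1) and 662 RPKM (pool 2), Il7r at 356 and 466, and Stat3 at 72.1 and 78.6. Csf2rb was lowest at 0.779 and 1.38 RPKM, and Csf3r, the granulocyte colony-stimulating factor receptor, was at 0.819 and 1.78. Among genes of innate lymphoid development, 11 of 12 were detected, 1 at least 2-fold higher in pool 1 and 1 in pool 2, with a median of -0.16. These were Id2, an E protein inhibitor that Nfil3 is known to act upon, at 709.7 RPKM (pool 1) and 287 RPKM (pool 2), and Tbx21 at 1.67 and 3.93. Ets1, which acts beside Nfil3 in lymphocyte development, was at 268 and 295 RPKM, and Eomes, which Nfil3 activates in natural killer cells, was lowest at 0.0799 and 0.0543.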

How the data were processed

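The authors deposited RPKM values for each gene in 1 file per library, keyed by Entrez ID. CASAVA 1.8.2, featureCounts, edgeR 3.8.2, edgeR 3.22.0 and the mm10 build are named in the submitters' processing notes without their roles, and neither an aligner nor a strand setting is stated in the labels or files. Per the labels' protocols, 100 ng of total RNA entered the TruSeq preparation.

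The 9 genes, the gene lists and the promoter motifs were chosen with earlier results of these data known. The text names all 9 genes and, of each list, the 3 highest genes, the lowest above 0 and up to 3 with the largest fold of 2 or more; other genes were chosen after their values were seen, some that the rule takes are given by count only, and 1 is not reported here. Differences are log2(RPKM + 0.1), pool 1 minus pool 2, which understates those of low genes. With 1 group of 2 libraries no test was made, and genes were called apart by fold alone. The samples are separate pools of mice, and SDs are over 2 pools.

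Candidate library totals were found from the steps between low RPKM values. Of these, the pair was taken whose smallest fitting lengths most often equalled the annotated exon length, in 35 of 400 genes tried. For 17233 of 17233 genes above 0 (100%) some whole length from 20 to 130000 bases turned both values into whole reads, to the precision of the deposited decimals. A multiple of that length is possible too, so the multiple nearest the GENCODE M21 exon length was taken for lengths under 40% of it or with a double within 10% of it. These estimates sum to 109.6% and 109% of the totals, and intervals on them (exact, Clopper-Pearson, 95%) cover counting error only, since PCR copies are not independent molecules. With sums above 100%, some estimates may be too high and their intervals too narrow. Python 3.11.15, numpy 2.4.6, pandas 2.3.3, scipy 1.17.1 and matplotlib 3.10.9 were used. Alternatives were pseudocounts of 0.01 and 1, filters of 0.5 and 5 RPKM or none, 3 other scalings, CPM and leaving out a pool.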

Additional observations from a re-analysis of the deposited data

How the results depend on the processing

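Leaving out either pool kept 6 to 7 of 9 genes in the same place of the order by level. All 9 stayed detected, which was set in advance, since detection already required 1 RPKM in both pools. The order was the same in 9 of 9 places under both pseudocounts. It was also the same under all filters and the 3 other scalings, which could scarcely change it. Filters leave each level as it is, and those scalings apply a single factor per library. Scaling by library total without gene length (CPM) kept 3 of 9 in place. The count of these genes at least 2-fold apart was 1 with a filter of 5 RPKM, which Cebpe did not pass (6 of 9 did), and 2 under all other settings. Over all genes the count at least 2-fold apart was 282, against 102 with a filter of 5 RPKM, 1535 with no filter and 458 with values rescaled to equal sums (TPM). The TPM setting also tested more genes, 11953 against 11013, because 1 TPM is a lower threshold than 1 RPKM here, and the rescaling moved pool 1 over pool 2 by a factor of 1.01. Under the alternatives Cebpb lay between 1.97 and 2.12 (log2, pool 1 minus pool 2) and Cebpe between -1.63 and -1.25. Filters leave each difference unchanged, so their outcomes were fixed in advance. Of 81 differences of the 9 genes under alternatives, filters included, 79 kept their sign and their side of 2-fold. The other 2 were those of Tef, at 0.0062 with the median ratio set to 1 and 0.0088 with TMM factors. Low read numbers limit Cebpd, Cebpa and Cebpe. No paired analysis was possible because the libraries form a single group.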
